A study of Mus musculus with 16 samples.

Results

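The genes described here are 10 members of the heat shock protein families, of 29535 genes in the expression table. They were chosen by name, as Hspa1a, Hspa1b, Hspa8, Hsph1, Dnajb1, Hsp90aa1, Hsp90ab1, Hspb1, Hspb8 and Hspe1, with no threshold on a measured value. Prostate tissue of mice aged 12 months, on a hybrid background of the strains 129/SvImJ and C57Bl/6J, was taken for RNA, and poly-A selected libraries were sequenced on an Illumina HiSeq2000. The mice were homozygous mutant (-/-) or wild type (+/+) for 1 gene. Each genotype received finasteride, an inhibitor of the steroid reductases that make dihydrotestosterone from testosterone, or vehicle alone. This gave 5 mutant libraries on finasteride, 3 mutant libraries on vehicle, 5 wild-type libraries on finasteride and 3 wild-type libraries on vehicle. All groups shared age, tissue and strain background. The labels state neither how the mutation was made, nor the dose and length of treatment, nor whether each library came from 1 animal, so the p-values measure the spread between these libraries only.

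Heat shock proteins are chaperones, which bind unfolded stretches of other proteins and help them fold, refold or reach degradation. HSP70 proteins work in cycles of ATP use that J-domain proteins such as Dnajb1 start and HSP110 proteins such as Hsph1 reset, HSP90 proteins act later on clients that include the androgen receptor and other steroid receptors, and small heat shock proteins hold unfolded clients without using ATP. When unfolded proteins gather, the transcription factor HSF1 binds heat shock elements, which are inverted repeats of the letters GAA, and raises the transcription of the inducible members. Of the 10 proteins, 9 act mainly in the cytosol and nucleus. Hspe1 encodes the mitochondrial co-chaperonin Hsp10, the lid of the Hspd1 chamber, so the name cytosolic does not describe it.

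Promoter sequence is shown first, as a description only. The printed windows set Hspb8, which did not change with the others in wild-type finasteride libraries, beside genes that rose there. Whether the matches have a part in those changes was not tested. Windows of 200 bases before to 30 bases after the transcription start were taken from RefSeq promoters on build GRCm38.p6, and capitals mark matches of GAANNTTC or TTCNNGAA, the facing pairs of the heat shock element. Each motif has 8 letters and reads the same on both strands, and neighbouring matches may overlap. Of the 10 genes, 7 had a window, and Hspa8, Hsp90aa1 and Hsp90ab1 are named only. The Hspa1a window lies at chr17:34972127-34972356 on the minus strand. The Hsph1 window, for the second of its 2 listed starts, lies at chr5:149636286-149636515 on the minus strand. The Hspb1 window lies at chr5:135887719-135887948 on the plus strand. The Hspe1 window lies at chr1:55087948-55088177 on the plus strand. The Hspb8 window lies at chr5:116422835-116423064 on the minus strand.
Hspa1a: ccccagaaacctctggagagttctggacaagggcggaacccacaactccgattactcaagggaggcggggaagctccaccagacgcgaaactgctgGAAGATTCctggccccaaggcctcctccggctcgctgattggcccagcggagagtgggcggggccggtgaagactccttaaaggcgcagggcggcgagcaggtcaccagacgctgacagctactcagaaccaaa
Hsph1: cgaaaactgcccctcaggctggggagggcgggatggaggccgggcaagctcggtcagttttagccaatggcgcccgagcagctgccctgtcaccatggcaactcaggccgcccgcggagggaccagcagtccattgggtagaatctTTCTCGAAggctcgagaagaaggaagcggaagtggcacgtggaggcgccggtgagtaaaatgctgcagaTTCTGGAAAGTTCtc
Hspb1: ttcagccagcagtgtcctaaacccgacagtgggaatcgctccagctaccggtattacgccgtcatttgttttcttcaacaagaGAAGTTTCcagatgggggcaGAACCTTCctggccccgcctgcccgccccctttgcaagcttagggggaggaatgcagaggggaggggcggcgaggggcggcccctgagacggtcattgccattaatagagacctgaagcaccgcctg
Hspe1: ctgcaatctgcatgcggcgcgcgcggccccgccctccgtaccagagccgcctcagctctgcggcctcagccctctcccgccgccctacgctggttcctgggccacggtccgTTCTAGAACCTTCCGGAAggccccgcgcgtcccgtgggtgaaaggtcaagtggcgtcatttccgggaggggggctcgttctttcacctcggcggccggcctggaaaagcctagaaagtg
Hspb8: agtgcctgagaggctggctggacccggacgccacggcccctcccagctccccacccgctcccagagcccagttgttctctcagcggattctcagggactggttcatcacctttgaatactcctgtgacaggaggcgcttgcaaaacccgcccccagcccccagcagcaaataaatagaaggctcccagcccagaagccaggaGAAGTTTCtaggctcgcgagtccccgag
Counted from the start, the match in Hspa1a begins at base -104. Hspb1 held 2 matches, at -117 and -97. Hspe1 held 3 overlapping matches, at -89, -84 and -79, and the shown Hsph1 window held 3, at -54, 16 and 21, while the window of the other Hsph1 start held 1, at -33. The single match in Hspb8 begins at base 3, after the start. Of the 32851 windows of this length in the table, 11.8% held at least 1 match and 0.146% held 3 or more. Hspa1b had the same match at -104 in a window that differed from that of Hspa1a at 2 of 230 bases. The Dnajb1 windows held none, which says only that these letters are not in those windows. A match is a description of sequence and was not tested as a binding site.

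Values are on the authors' normalized log2 scale, and the read depth of each library is unknown. Taken out of log2, the values summed to log2 totals of 24.07 to 24.55 per library, of which the 10 genes highest in a library made up 9.585% to 31.19%. A mean of at least 10 out of log2 was passed by 16895 genes, which were tested together, and all 10 heat shock protein genes passed it. Before any result, 5 libraries stood apart in another way. Wild-type vehicle library 3, wild-type finasteride library 4, mutant vehicle library 3 and mutant finasteride libraries 3 and 4 each could be rebuilt, to a residual SD under 0.1 log2, by mixing the profiles of a pair of libraries from the same group. Wild-type finasteride library 4, for example, was fitted by equal parts (weights of 0.5 and 0.5) of libraries 3 and 5. For the 10 heat shock protein genes, the main calls below are given with and without these 5 libraries. For other genes, many calls are given only with all libraries.

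Levels of different genes can be compared only per length. Under the assumption that the deposited values are not yet divided by gene length, which the labels do not state, levels are given as log2 of expression per kilobase of exon, with exon lengths from the GRCm38.p6 annotation. Hsp90ab1, the constitutive HSP90, was the highest in every group, at 14.77 ± 0.29 in wild-type finasteride libraries (SD, n = 5) and 13.91 ± 0.07 in wild-type vehicle libraries (SD, n = 3). Hspa8, the constitutive HSP70, came after it in every group. On this scale it stood at 12.39 ± 0.51 in wild-type finasteride libraries and 10.85 ± 0.35 in wild-type vehicle libraries.
In wild-type vehicle libraries the order of the mean levels went on with Hspe1 (9.98 ± 0.17), Hspb8 (9.73 ± 0.08), Hspb1 (9.52 ± 0.23), Hsp90aa1 (8.87 ± 0.04), Hsph1 (8.64 ± 0.12), Dnajb1 (8.05 ± 0.19), Hspa1b (7.65 ± 0.40) and Hspa1a (5.28 ± 0.35). Ranges of neighbours overlapped between Hspe1 and Hspb8, between Hspb8 and Hspb1, and between Dnajb1 and Hspa1b. In mutant finasteride libraries Hspb8 came next after Hspa8, at 10.18 ± 0.12, followed by Hspb1 (10.12 ± 0.55), Hspe1 (9.76 ± 0.39), Hspa1b (8.31 ± 0.31), Hsp90aa1 (8.02 ± 0.092), Dnajb1 (7.96 ± 0.26), Hsph1 (7.77 ± 0.35) and Hspa1a (5.86 ± 0.15). There the ranges of neighbours were separate between Hsp90ab1 and Hspa8, between Hspe1 and Hspa1b, and between Hsph1 and Hspa1a, and overlapped elsewhere. In mutant vehicle libraries Hspb8 stood at 8.69 ± 0.11, below Hspe1 (10.13 ± 0.12) and Hspb1 (10.08 ± 0.15), and level with Hsph1 (8.62 ± 0.19), whose range it overlapped. In wild-type finasteride libraries Hspa1b came next after Hspa8, at 11.08 ± 1.76, and Hspb8 was next to last, at 9.14 ± 0.18, above Hspa1a at 8.72 ± 1.65. All neighbours in that group overlapped except Hsp90ab1 and Hspa8.

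The first comparison asks what finasteride did in wild-type prostate (5 finasteride against 3 vehicle libraries). On finasteride 9 of the 10 genes were higher and Hspb8 was lower, each with a limma adjusted p under 0.05 over all genes tested. Across all genes tested in this comparison 39.8% passed, 17.9% higher and 21.9% lower. In 9 of the 10 genes the libraries of the groups did not overlap, against 35.3% of all genes tested. The median log2 difference was 1.501 over the 10 genes and -0.03 over all genes tested. Among the 9 the sizes ran from 10.8-fold for Hspa1a to 1.66-fold for Hsp90aa1.

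Hspa1a and Hspa1b encode the stress-inducible HSP70, from neighbouring genes on chromosome 17. Hspa1a had log2 values of 7.45, 7.51, 7.20, 7.60 and 7.37 in mutant finasteride libraries, against 7.44, 6.85 and 7.14 in mutant vehicle libraries. In wild type it had 11.52, 9.70, 11.69, 10.81 and 7.70 in finasteride libraries, against 6.47, 7.17 and 6.91 in vehicle libraries. In wild-type finasteride, 4 libraries stood far above all others, and library 5 stood only just above the rest. Hspa1a was higher on finasteride in wild type by 3.44 ± 0.63 log2 (SE), or 10.8-fold (limma adjusted p = 0.000835).

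Hspa1b had log2 values of 9.62, 10.29, 9.48, 9.84 and 9.75 in mutant finasteride libraries, against 9.87, 8.66 and 9.32 in mutant vehicle libraries. Its values were 13.62, 12.07, 14.16, 13.24 and 9.73 in wild-type finasteride libraries, against 8.71, 9.50 and 9.21 in wild-type vehicle libraries. The order of the wild-type finasteride libraries was the same as for Hspa1a, with library 3 highest and library 5 lowest, and library 5 lay among the mutant finasteride libraries but above wild-type vehicle. The difference on finasteride in wild type was 3.42 ± 0.69 log2, or 10.7-fold (limma adjusted p = 0.00162).
The coding sequences of the pair differ at 8 of 1923 aligned bases (99.6% identical), so the counting could have split reads between them and each gene's own value is uncertain. Hspa1b minus Hspa1a was 2.37 ± 0.24 log2 in mutant finasteride, 2.14 ± 0.31 in mutant vehicle, 2.28 ± 0.20 in wild-type finasteride and 2.29 ± 0.05 in wild-type vehicle libraries (SD). The sum of the pair, which does not depend on the split, was 10.05 ± 0.28 log2 in mutant finasteride, 9.58 ± 0.55 in mutant vehicle, 12.83 ± 1.74 in wild-type finasteride and 9.41 ± 0.39 in wild-type vehicle libraries. Over single libraries the offset lay between 1.81 and 2.78 log2, while the sum ran from 8.99 to 14.40 log2.

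Hspa8 encodes the constitutive HSP70, which also uncoats clathrin vesicles, and its coding sequence is 74.8% identical to that of Hspa1a. It had log2 values of 11.18, 12.13, 11.50, 11.47 and 11.81 in mutant finasteride libraries, against 12.34, 12.11 and 12.22 in mutant vehicle libraries. Wild-type finasteride libraries had 13.84, 13.61, 14.24, 13.71 and 12.83, against 11.77, 12.46 and 12.10 in wild-type vehicle libraries. All wild-type finasteride libraries lay above every library of the other groups. The difference in wild type was 1.54 ± 0.26 log2, or 2.90-fold (limma adjusted p = 0.000463).

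Hsph1 encodes an HSP110 protein, a nucleotide exchange factor of HSP70. It had log2 values of 9.40, 10.29, 9.67, 9.80 and 10.07 in mutant finasteride libraries, against 10.87, 10.50 and 10.73 in mutant vehicle libraries. In wild type it had 12.94, 12.43, 14.00, 13.16 and 11.16 in finasteride libraries, against 10.57, 10.80 and 10.77 in vehicle libraries. The mutant finasteride libraries were the lowest of all and the wild-type finasteride libraries the highest, with no overlap on either side of the vehicle libraries. Finasteride in wild type gave a difference of 2.02 ± 0.42 log2, or 4.07-fold (limma adjusted p = 0.00184).

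Dnajb1 encodes the J-domain protein that brings clients to HSP70. It had log2 values of 9.40, 9.996, 9.40, 9.61 and 9.82 in mutant finasteride libraries, against 9.96, 9.55 and 9.71 in mutant vehicle libraries. Its values were 11.79, 10.77, 12.01, 11.36 and 10.05 in wild-type finasteride libraries, against 9.55, 9.93 and 9.71 in wild-type vehicle libraries. The other 3 groups overlapped, and wild-type finasteride library 5 lay just above the highest of them. The wild-type difference was 1.46 ± 0.32 log2, or 2.76-fold (limma adjusted p = 0.00283).

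HSP90 has a more inducible form, Hsp90aa1, and a constitutive form, Hsp90ab1, whose coding sequences are 76.8% identical. Hsp90ab1 had log2 values of 14.58, 15.20, 14.72, 14.77 and 14.90 in mutant finasteride libraries, against 15.03, 15.11 and 15.06 in mutant vehicle libraries. Wild-type finasteride libraries had 16.35, 15.70, 16.37, 16.17 and 15.92, against 15.18, 15.33 and 15.22 in wild-type vehicle libraries. The wild-type finasteride libraries were again above all others, and the difference in wild type was 0.86 ± 0.16 log2, or 1.81-fold (limma adjusted p = 0.00102).
Hsp90aa1 had log2 values of 9.76, 9.70, 9.87, 9.69 and 9.88 in mutant finasteride libraries, against 10.26, 10.19 and 10.20 in mutant vehicle libraries. In wild type it had 11.16, 11.22, 12.36, 11.66 and 10.43 in finasteride libraries, against 10.66, 10.59 and 10.64 in vehicle libraries. Library 5 of wild-type finasteride lay below all 3 wild-type vehicle libraries, so those groups overlapped. The wild-type difference was 0.74 ± 0.27 log2, or 1.66-fold (limma adjusted p = 0.0412), and a two-sided exact permutation test of the same libraries gave p = 0.161, where 0.0179 is the smallest possible. This call was lost without any 1 of wild-type vehicle libraries 1, 2 and 3 (adjusted p = 0.0949, 0.0943 and 0.0962) and without wild-type finasteride library 3 or 4 (adjusted p = 0.0565 and 0.0858).

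Hspb1 encodes Hsp27, a small heat shock protein that holds unfolded clients and binds actin filaments. It had log2 values of 9.55, 10.99, 9.81, 10.27 and 10.23 in mutant finasteride libraries, against 10.29, 9.99 and 10.08 in mutant vehicle libraries. Its values were 11.65, 10.47, 11.76, 11.31 and 10.35 in wild-type finasteride libraries, against 9.41, 9.82 and 9.45 in wild-type vehicle libraries. The wild-type groups did not overlap, and mutant finasteride library 2 reached the range of wild-type finasteride. The difference in wild type was 1.55 ± 0.33 log2, or 2.92-fold (limma adjusted p = 0.00226).
Hspe1 had log2 values of 8.96, 10.01, 9.17, 9.34 and 9.48 in mutant finasteride libraries, against 9.80, 9.62 and 9.85 in mutant vehicle libraries. Wild-type finasteride libraries had 10.51, 9.999, 10.72, 10.59 and 10.29, against 9.42, 9.76 and 9.64 in wild-type vehicle libraries. Mutant finasteride library 2 was the highest of its group for this gene too, and the wild-type groups did not overlap. The difference in wild type was 0.81 ± 0.19 log2, or 1.76-fold (limma adjusted p = 0.00441).

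Hspb8, a small heat shock protein that pairs with the co-chaperone Bag3 to route clients to autophagy, went the other way. It had log2 values of 11.14, 10.84, 11.10, 11.12 and 10.98 in mutant finasteride libraries, against 9.60, 9.42 and 9.63 in mutant vehicle libraries. In wild type it had 10.15, 10.21, 9.98, 9.89 and 9.79 in finasteride libraries, against 10.66, 10.50 and 10.61 in vehicle libraries. The 4 groups were separate from each other, with mutant finasteride highest, then wild-type vehicle, wild-type finasteride and mutant vehicle. In wild type Hspb8 was lower on finasteride, with a difference of -0.58 ± 0.098 log2, or 1.497-fold lower (limma adjusted p = 0.000488).

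**Figure D1:**
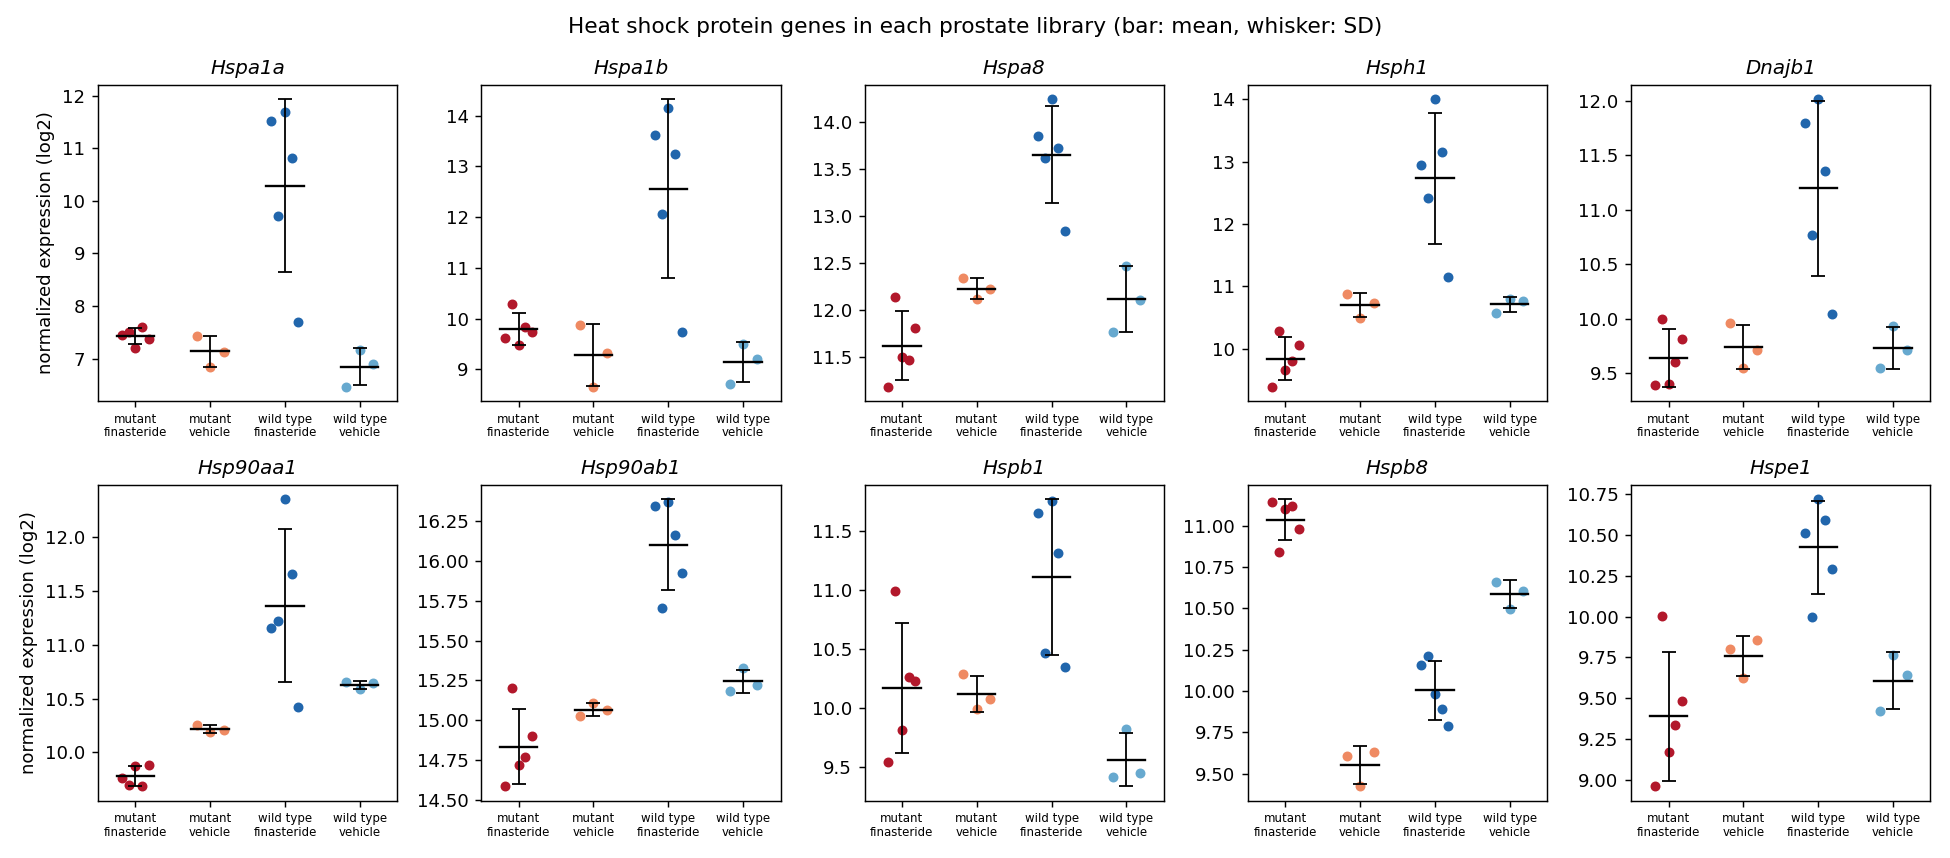
Normalized expression (log2) of each heat shock protein gene, 1 point per library, by group (mutant finasteride n = 5, mutant vehicle n = 3, wild-type finasteride n = 5, wild-type vehicle n = 3), with the mean as a bar and the SD as a whisker. In 9 panels the mean of the wild-type finasteride libraries is the highest, while in the Hspb8 panel the mutant finasteride points, at 10.84 to 11.14, are above all others.

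Without the 5 mixture-like libraries, 3 of the 10 wild-type finasteride calls remained: Hspa1a (3.33 log2, limma adjusted p = 0.0474), Hspa8 (1.52 log2, adjusted p = 0.0369) and Hspb8 (-0.54 log2, adjusted p = 0.0403). The differences of the other 7 kept their sign, with adjusted p = 0.0612 for Hsp90ab1, 0.0629 for Hspa1b, 0.0651 for Hsph1, 0.0753 for Hspb1, 0.078 for Dnajb1, 0.0858 for Hspe1 and 0.26 for Hsp90aa1. In that fit 1445 of all genes tested (8.55%) were called. The main fit shares 1 spread over all 4 groups. With a fit on the wild-type libraries alone, mixture-like ones included, 9 of the 10 genes passed, where 32.9% of all genes tested passed. Limma adjusted p was larger there, at 0.0124 for Hspa1a, 0.0161 for Hspa1b, 0.0163 for Hsph1 and 0.0206 for Dnajb1. Hsp90aa1 did not pass (adjusted p = 0.125).

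The size of the rise differed among the wild-type finasteride libraries. The SD of Hspa1a was 1.65 log2 over the 5 wild-type finasteride libraries, against 0.35 log2 over the wild-type vehicle libraries. Set against the mean of the wild-type vehicle libraries, Hspa1b was higher by 4.48, 2.92, 5.02, 4.10 and 0.59 log2 in wild-type finasteride libraries 1 to 5. Library 3 was the highest for all 9 genes that rose, and library 5 the lowest for 7 of them, with library 2 lowest for Hsp90ab1 and Hspe1. Leaving out library 5 raised the wild-type difference of Hspa1b to 4.13 log2, and leaving out library 3 gave 3.02 log2, both still called. Together the 10 genes took 0.543%, 0.379%, 0.649%, 0.496% and 0.334% of the summed expression in wild-type finasteride libraries 1 to 5, against 0.204%, 0.266% and 0.235% in wild-type vehicle libraries. Hspb8 did not follow that order: set against the vehicle mean it was lower by 0.43, 0.38, 0.61, 0.70 and 0.80 log2 in the same 5 libraries.

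**Figure D2:**
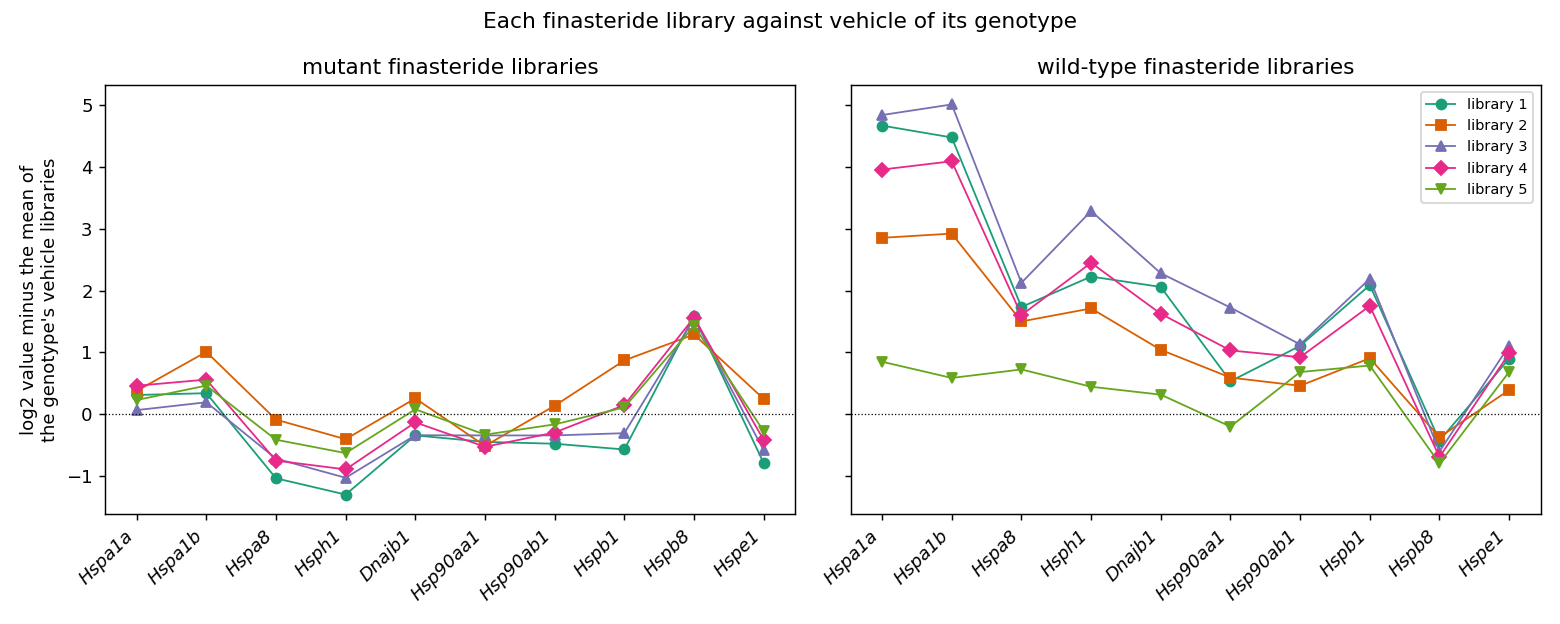
Log2 value of each gene in each finasteride library minus the mean of the vehicle libraries of the same genotype, 1 line per library, with mutant libraries in the left panel and wild-type libraries in the right panel. In wild type, library 3 is at the top for the 9 genes that rose, and in the mutant all 5 libraries lie 1.29 to 1.59 log2 above vehicle at Hspb8.

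The second comparison asks what finasteride did in the mutant prostate (5 finasteride against 3 vehicle libraries). Hspb8 was higher by 1.48 ± 0.098 log2, or 2.79-fold (limma adjusted p = 4.28e-08), and none of the other 9 genes passed. Over all genes tested 48.6% passed in this comparison, 26.3% higher and 22.3% lower. The libraries did not overlap for 3 of the 10 genes (Hsph1, Hsp90aa1 and Hspb8), against 49.6% of all genes tested. Without the 5 mixture-like libraries the difference of Hspb8 was 1.48 log2 (adjusted p = 0.000346).
Several of the 9 had negative differences that did not pass. They were -0.86 ± 0.42 log2 for Hsph1 (limma adjusted p = 0.104), -0.60 ± 0.26 for Hspa8 (adjusted p = 0.064), -0.44 ± 0.27 for Hsp90aa1 (adjusted p = 0.197) and -0.37 ± 0.19 for Hspe1 (adjusted p = 0.129). Hspa1a had 0.29 ± 0.63 log2 and Hspa1b 0.51 ± 0.69 log2, with 95% intervals from -1.05 to 1.63 and from -0.97 to 1.99.
These errors come from a spread shared by all 4 groups. The SD was larger in wild-type finasteride than in mutant finasteride libraries for 9 of the 10 genes, and for Hspe1 it was 0.39 log2 in mutant finasteride and 0.28 log2 in wild-type finasteride. For Hspa1a it was 0.15 log2 over mutant finasteride libraries and 1.65 log2 over wild-type finasteride libraries. With a fit on the mutant libraries alone, Hsph1 (limma adjusted p = 0.00496), Hspa8 (adjusted p = 0.0242) and Hsp90aa1 (adjusted p = 0.000679) also passed, all lower on finasteride. That makes 4 of 10, where 50.5% of all genes tested passed in that fit. Both mutant groups in it held mixture-like libraries. In the fit of all 4 groups, none of the 3 had passed with all libraries, and none passed without the 5 mixture-like libraries. Limma adjusted p was then 0.409 for Hsph1, 0.372 for Hspa8 and 0.466 for Hsp90aa1. That fit cannot show whether the calls on the mutant libraries alone depend on the mixture-like libraries. Mutant finasteride library 2 was the highest of its group for Hspa1b, Hspa8, Hsph1, Dnajb1, Hsp90ab1, Hspb1 and Hspe1 and the lowest for Hspb8, and without it Hspa8 (-0.73 log2, adjusted p = 0.0227) and Hspe1 (-0.52 log2, adjusted p = 0.0109) passed as lower.

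Whether the genotypes responded unequally was tested as the finasteride difference in the mutant minus that in wild type. All 10 genes passed, 9 with a smaller or more negative finasteride difference in the mutant and Hspb8 with a larger one, against 56.8% of all genes tested, 30.2% higher and 26.6% lower. The median was -1.53 log2 over the 10 genes and 0.00 over all genes tested. The largest difference of differences was that of Hspa1a, at -3.15 ± 0.89 log2 (limma adjusted p = 0.00739), with 0.29 ± 0.63 in the mutant and 3.44 ± 0.63 in wild type. Hsph1 had -2.88 ± 0.59 (adjusted p = 0.000809), with -0.86 in the mutant and 2.02 in wild type. Hspb8 had 2.07 ± 0.14 (adjusted p = 4.95e-08), with 1.48 in the mutant and -0.58 in wild type. The other 7 lay between -2.91 for Hspa1b and -1.09 for Hsp90ab1. Without the 5 mixture-like libraries, where 29.4% of all genes tested passed, 3 of these calls remained, those of Hspa8 (-2.03 log2, adjusted p = 0.019), Hsph1 and Hspb8 (2.02 log2, adjusted p = 0.000342), and that of Hspa1b was also lost without mutant vehicle library 1 (adjusted p = 0.0544).

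The third comparison sets the genotypes against each other on vehicle (3 mutant against 3 wild-type libraries). Hspb8 was 2.05-fold lower in the mutant, a difference of -1.03 ± 0.11 log2 (limma adjusted p = 7.12e-06), and the other 9 genes did not pass, against 31.8% of all genes tested called, 14.3% higher and 17.5% lower. With 3 libraries against 3, an exact permutation test cannot give a p under 0.1, and Hspb8 had that value. The libraries did not overlap for 4 of the 10 genes, against 55.3% of all genes tested: Hspb8, Hsp90aa1 and Hsp90ab1 were lower in every mutant library and Hspb1 higher. Hsp90aa1 differed by -0.41 ± 0.30 log2 (limma adjusted p = 0.322) and Hspb1 by 0.56 ± 0.37 log2 (adjusted p = 0.272). In a limma fit on the vehicle libraries alone both passed, with adjusted p = 0.000444 for Hsp90aa1 and 0.00786 for Hspb1. With Hspb8 that makes 3 of 10, where 43.5% of all genes tested passed. Both vehicle groups held a mixture-like library. In the fit of all 4 groups, neither had passed with all libraries. Without the 5 mixture-like libraries neither passed there (limma adjusted p = 0.629 for Hsp90aa1 and 0.597 for Hspb1). That fit cannot show whether the calls on the vehicle libraries alone depend on the mixture-like libraries. Hsph1 (-0.01 ± 0.47) and Dnajb1 (0.01 ± 0.36) had the smallest differences, with 95% intervals from -1.01 to 0.98 and from -0.76 to 0.78. The call of Hspb8 held without the 5 mixture-like libraries (-1.06 log2, adjusted p = 0.00434).

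On finasteride (5 mutant against 5 wild-type libraries) 9 genes were lower in the mutant and Hspb8 was higher, against 63.7% of all genes tested called, 33.9% higher and 29.7% lower. These libraries are the same ones that enter the finasteride comparisons above, so the counts are not independent of each other. Hsph1 was lower by 7.43-fold (-2.89 ± 0.36 log2, limma adjusted p = 5.7e-06), Hspa8 by 4.09-fold (-2.03 ± 0.22 log2, adjusted p = 1.48e-06) and Hsp90ab1 by 2.41-fold (-1.27 ± 0.14 log2, adjusted p = 1.58e-06). Hspb8 was higher by 2.04-fold (1.03 ± 0.085 log2, adjusted p = 7.22e-08). The libraries did not overlap for 7 of the 10 genes, against 40.1% of all genes tested, and overlapped for Hspa1b, Hspb1 and Hspe1. Without the 5 mixture-like libraries 9 of the 10 calls remained, where 41.1% of all genes tested passed, and Hspb1 was lost (-0.80 log2, adjusted p = 0.138).

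**Figure D3:**
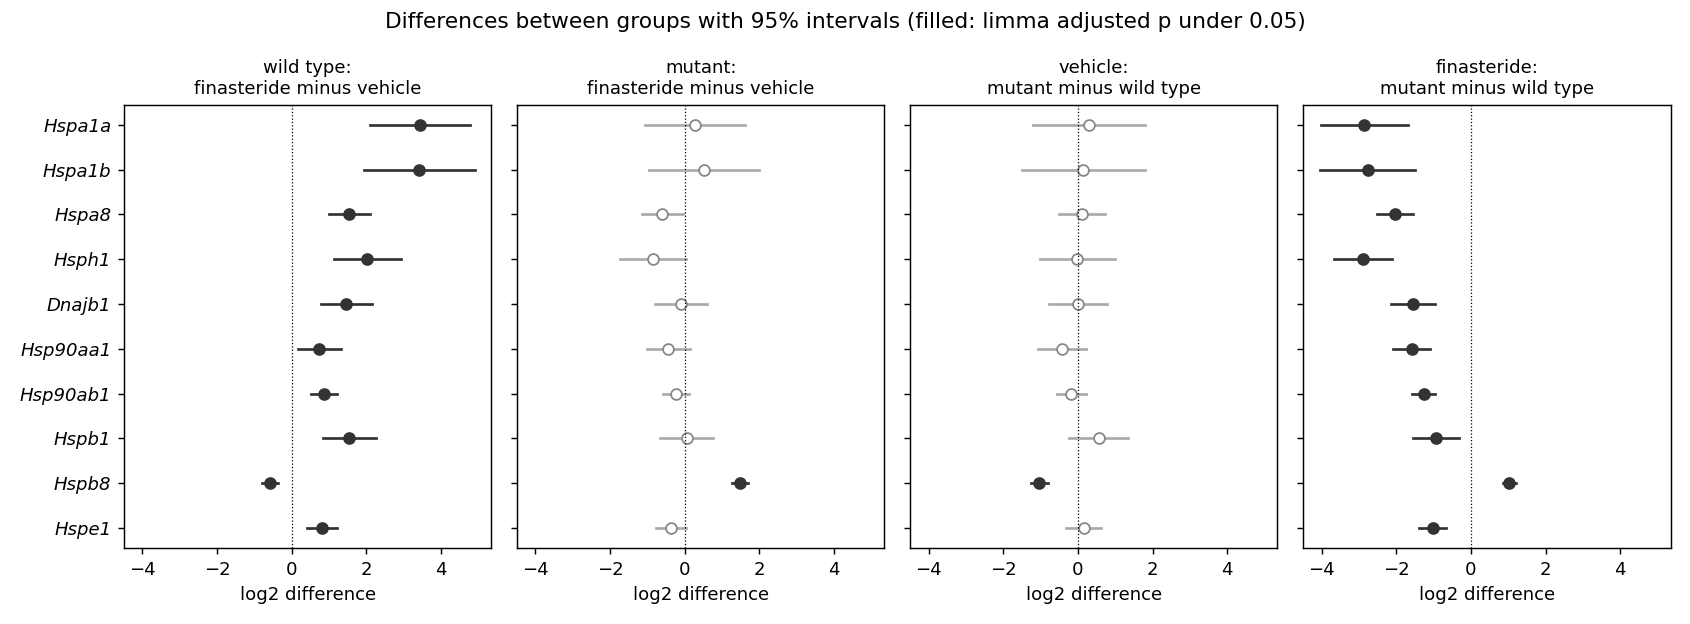
Log2 differences with 95% intervals for each gene in the 4 comparisons of groups, filled where the limma adjusted p was under 0.05 over all genes tested. In wild type 9 of the 10 finasteride differences lie right of 0 with Hspb8 at -0.58 left of it, and in the mutant only Hspb8, at 1.48, is filled.

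Over the 16 libraries the Pearson correlation of each gene with the mean z-score of the 10 genes ran from 0.882 for Hsp90aa1 to 0.994 for Dnajb1, and was -0.355 for Hspb8. These correlations are a description over libraries that share their groups and scaling, and each gene is itself part of the mean. After the group means were removed, Hspa1a and Hspa1b, between which reads could have been split, still moved together over libraries (r = 0.982). Dnajb1 had r = 0.963 with Hspa1b and 0.947 with Hspa1a. The SD of Hspa1b was 1.76 log2 in wild-type finasteride, 0.31 in mutant finasteride, 0.60 in mutant vehicle and 0.40 in wild-type vehicle libraries. The wild-type finasteride libraries, of which library 4 was mixture-like, thus weigh most in the correlations of Hspa1a, Hspa1b and Dnajb1. Hsp90ab1 had r = 0.932 with Hspb1 and 0.904 with Hspe1. The lowest pair without Hspb8 was Hsp90aa1 and Hspe1 (r = 0.312). With Hspe1, Hspb8 had r = -0.537 on that measure and with Hspa1a 0.324. Hspe1 was also set against Hspd1, the mitochondrial chaperonin it caps. Hspd1 minus Hspe1 was 0.95 ± 0.29 log2 in mutant finasteride, 1.02 ± 0.12 in mutant vehicle, 0.96 ± 0.15 in wild-type finasteride and 1.16 ± 0.11 in wild-type vehicle libraries (SD).

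Outside the set, the 5 tested genes whose profile was most like the mean z-score of the 10 genes were Ccdc134 (r = 0.988), Gm8355 (r = 0.979), Ddit3 (r = 0.973), Mrpl49 (r = 0.970) and Cct4 (r = 0.964), over 16 libraries. Ddit3 encodes CHOP, a transcription factor of the unfolded protein response, and Cct4 encodes a subunit of the cytosolic chaperonin. Ddit3 stood at 8.16 ± 0.085 log2 in mutant finasteride, 8.31 ± 0.055 in mutant vehicle, 11.10 ± 0.85 in wild-type finasteride and 8.35 ± 0.45 in wild-type vehicle libraries (SD). Like the inducible HSP70 pair, it was high in wild-type finasteride libraries and close together in the other 3 groups.
The 5 genes most like Hspb8 were Gm2a (r = 0.986), Rhoc (r = 0.982), Timp2 (r = 0.977), G0s2 (r = 0.974) and Kcnn4 (r = 0.972). Timp2 encodes an inhibitor of matrix metalloproteinases and Kcnn4 a calcium-activated potassium channel. Kcnn4 stood at 9.44 ± 0.28 log2 in mutant finasteride, 5.45 ± 0.27 in mutant vehicle, 6.12 ± 0.31 in wild-type finasteride and 7.61 ± 0.13 in wild-type vehicle libraries, the same order of groups as Hspb8.

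Other genes of the chaperone network were read from lists, and the members named are those with the lowest p in a comparison, up to 4 from each list. Their counts stand beside the shares of all genes tested that passed on finasteride: 48.6% in the mutant (26.3% higher, 22.3% lower) and 39.8% in wild type (17.9% higher, 21.9% lower). The master regulator Hsf1 was higher on finasteride in wild type (0.53 ± 0.086 log2, limma adjusted p = 0.000396) and had -0.19 ± 0.086 log2 in the mutant, which passed only after median centring (-0.33 log2, adjusted p = 0.0106). Hsf2, a related factor, was lower in both, with -0.71 log2 in the mutant and -0.58 log2 in wild type. Of the 4 genes of heat shock factors and their binding protein, 1 was higher and 1 lower in each genotype, and Hsf4 was the one higher in the mutant (0.88 log2), a call lost under quantile normalization (0.28 log2, adjusted p = 0.324).

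Of 17 HSP70 co-chaperones, 3 were higher and 7 lower on finasteride in the mutant, while 6 were higher and none lower in wild type. That is 58.8% of the list in the mutant and 35.3% in wild type, near the shares of all genes when both directions are pooled. By direction, 41.2% were lower in the mutant, against 22.3% of all genes tested, and 17.6% higher, against 26.3%. In wild type 35.3% were higher, against 17.9%, and none lower, against 21.9%. In wild type Bag3 (1.06 log2), the partner of Hspb8, Stub1 (0.62 log2), the ubiquitin ligase CHIP that works on HSP70 clients, Dnajb2 (0.61 log2) and Dnajc7 (0.29 log2) were higher. In the mutant Bag4 (-0.47 log2), St13 (-0.44 log2) and Dnajc2 (-0.37 log2) were lower, as was Dnaja2 (-0.25 log2), whose call was lost under quantile normalization (-0.04 log2). Bag3 was higher in the mutant too (0.55 log2, limma adjusted p = 0.0469), but not after median centring (0.42 log2, adjusted p = 0.108). The 3 higher of this list in the mutant became 2 under quantile normalization and 0 under median centring.

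Of 13 HSP90 co-chaperones, 1 was higher and 1 lower in the mutant, and 8 were higher and 1 lower in wild type, or 15.4% of the list in the mutant and 69.2% in wild type. Fkbp4, an immunophilin of steroid receptor complexes, had -0.59 log2 in the mutant and 0.76 log2 in wild type, and Fkbp5, an immunophilin that androgens induce, had 1.54 log2 in the mutant and -1.70 log2 in wild type, all called. Stip1, the adaptor that joins HSP70 to HSP90, had -0.38 log2 in the mutant, which did not pass, and 0.83 log2 in wild type, which did. Sugt1 was higher in wild type by 0.25 log2.
Of 8 further members of the HSP70 and HSP110 families, 2 were higher and 2 lower in the mutant and 1 was higher and 1 lower in wild type. Hspa12a, a distant HSP70, had 0.98 log2 in the mutant and -1.59 log2 in wild type, both called, the first not under quantile normalization (0.56 log2, limma adjusted p = 0.0592). Hspa2, an HSP70 best known from the testis, was higher in wild type (0.94 log2).

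Of 8 other small heat shock proteins, 5 passed the filter on low values, and 4 of these were, like Hspb8, higher on finasteride in the mutant: Hspb2 (1.19 log2), Cryab (1.14 log2), Hspb7 (0.62 log2) and Hspb6 (0.59 log2), all known from muscle. The call of Hspb2 was lost under quantile normalization (0.60 log2, limma adjusted p = 0.0735), that of Hspb6 under median centring (0.45 log2, adjusted p = 0.0993), and all 4 without the 5 mixture-like libraries. None of the 5 passed in wild type, whereas under quantile normalization 2 were higher there. Of the 7 genes of the Hspb8 and Bag3 autophagy route, which include Hspa8 and share Bag3, Stub1 and Hspb6 with other lists, 3 were higher and 2 lower in the mutant and 4 were higher in wild type. Flnc, a muscle filamin handled by that route, was higher in the mutant by 0.86 log2, and the autophagy receptor Sqstm1 had -0.29 log2 in the mutant, a call lost under quantile normalization (-0.05 log2), and 0.58 log2 in wild type.
Markers of muscle and of fibroblasts also moved in these comparisons. All 8 smooth muscle markers were higher on finasteride in the mutant and 1 of 8 was higher in wild type. Their summed level, out of log2, was 97389 to 124748 in mutant finasteride, 63406 to 77283 in mutant vehicle, 83842 to 137174 in wild-type finasteride and 80202 to 99711 in wild-type vehicle libraries. Of 8 striated muscle markers, 5 were higher and none lower on finasteride in the mutant (median 1.81 log2), and 1 was higher and 4 lower in wild type (median -1.06 log2). Their medians between genotypes, mutant minus wild type, were -1.91 log2 on vehicle and 0.85 log2 on finasteride. These 4 medians had the signs of the 4 Hspb8 differences, but so did those of macrophage, adipocyte and seminal vesicle markers. The median of the smooth muscle markers on finasteride in wild type was 0.17 log2, against the sign of Hspb8. Summed, the striated muscle markers stood at 4301 to 5842 in mutant finasteride, 3734 to 4370 in mutant vehicle, 2957 to 5962 in wild-type finasteride and 2774 to 3373 in wild-type vehicle libraries. On vehicle these striated muscle sums were thus higher in the mutant, against the sign of the striated muscle median. Of 6 fibroblast markers, 3 were higher and none lower on finasteride in the mutant (median 0.48 log2), and 4 were lower and none higher in wild type (median -0.77 log2). Their medians between genotypes were -0.67 log2 on vehicle and 0.47 log2 on finasteride, with the same signs as the other lists that matched Hspb8. Summed, they stood at 15412 to 19500 in mutant finasteride, 11972 to 13557 in mutant vehicle, 11406 to 16339 in wild-type finasteride and 21276 to 23963 in wild-type vehicle libraries. None of these markers was at 0, and their part in the results of Hspb8 and the other small heat shock proteins was not tested. In bulk tissue, fewer cells of a type and less RNA per cell cannot be told apart.

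Of 10 chaperones of the endoplasmic reticulum, none was higher and 8 were lower on finasteride in the mutant, and 8 were higher and none lower in wild type, with a list median of -0.75 log2 in the mutant and 0.74 log2 in wild type. Hyou1, an HSP110 of that compartment, had -1.05 ± 0.17 log2 in the mutant and 1.27 ± 0.17 log2 in wild type, and Hspa5, its HSP70 BiP, had -1.02 ± 0.22 log2 in the mutant and 1.05 ± 0.22 log2 in wild type. Dnajb9 had -0.84 log2 in the mutant and 0.84 log2 in wild type. Pdia4 (1.23 log2) was also higher in wild type, and Dnajc3 (-1.39 log2), Dnajb11 (-0.67 log2) and Canx (-0.42 log2) lower in the mutant, Canx not under quantile normalization (-0.20 log2, limma adjusted p = 0.113).
Of 7 mitochondrial chaperones, 4 were lower in the mutant and 5 higher in wild type. Hspd1 had -0.44 log2 in the mutant and 0.62 log2 in wild type. Clpb (-0.77 log2) was lower in the mutant, and Dnaja3 had -0.30 log2 in the mutant and 0.25 log2 in wild type. Grpel1 had -0.29 log2 in the mutant and 0.28 log2 in wild type, and Hspa9 was higher in wild type (0.26 log2). The calls of Grpel1, and those of Hspd1 in the mutant and Hspa9 in wild type, were lost under quantile normalization, where 2 of the 7 were lower in the mutant and 3 higher in wild type. Of 8 subunits of the chaperonin CCT, 4 were lower in the mutant (Tcp1, -0.44 log2, the first by p) and 4 higher in wild type (Cct7, Cct4, Cct3 and Cct2, 0.37 to 0.45 log2), and under quantile normalization 1 was lower in the mutant.
Of 26 proteasome subunits, 1 was higher and 4 lower in the mutant, and 1 higher and 3 lower in wild type. Without the 5 mixture-like libraries 4 chaperones of the endoplasmic reticulum were lower in the mutant and 1 was higher in wild type, and no mitochondrial chaperone or CCT subunit passed in wild type. Of the co-chaperones, 2 of 17 for HSP70 and 1 of 13 for HSP90 were then higher in wild type. Of all genes tested, 20.3% passed in that fit in the mutant and 8.55% in wild type, counting both directions.

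**Figure D4:**
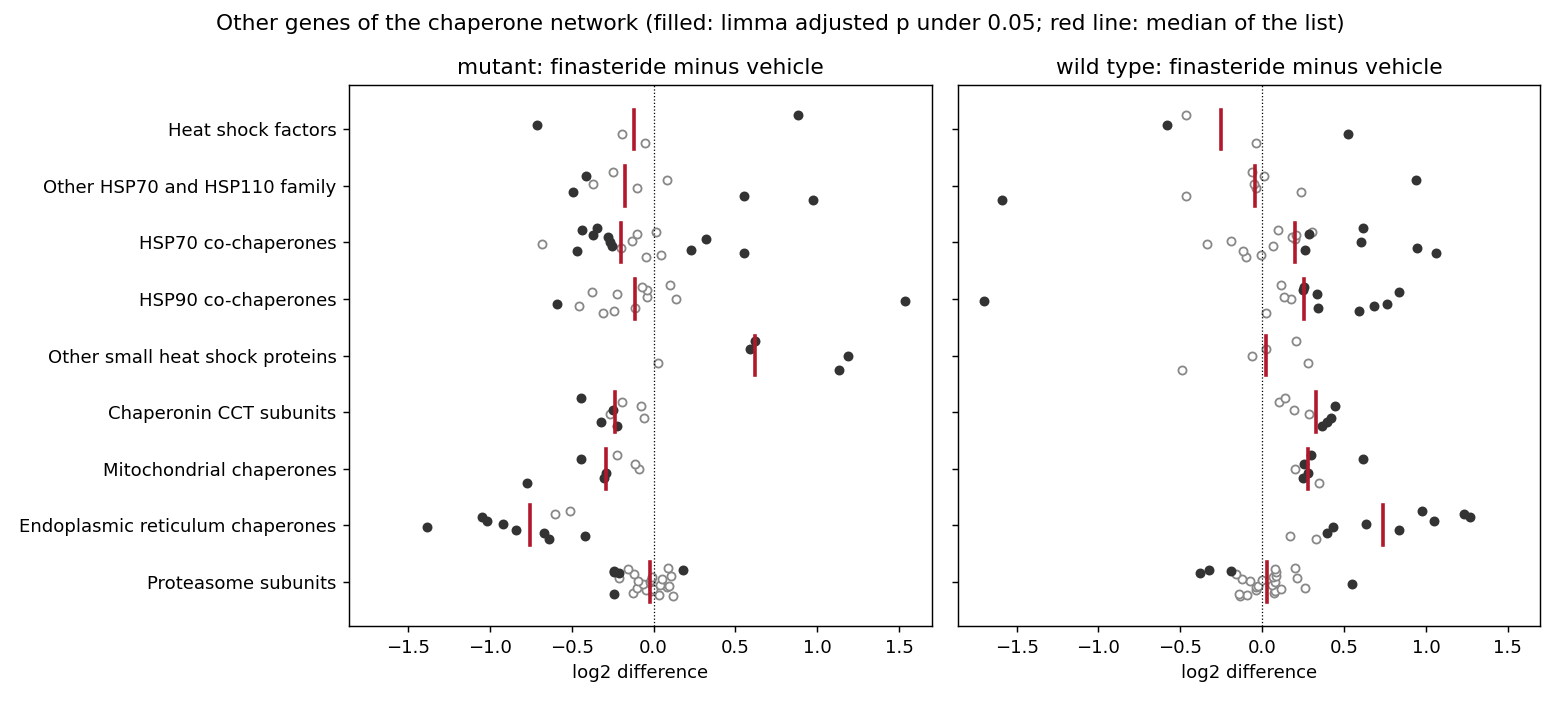
Log2 difference on finasteride for every tested gene of each list, in the mutant (left) and in wild type (right), filled where the limma adjusted p was under 0.05, with the list median as a red line. Chaperones of the endoplasmic reticulum lie left of 0 in the mutant (median -0.75) and right of 0 in wild type (median 0.74), while the medians of the proteasome subunits are -0.02 in the mutant and 0.03 in wild type.

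Other markers also moved with these comparisons. Of 23 immediate early genes, which respond fast to handling and other stimuli, 9 were higher and 3 lower on finasteride in the mutant and 15 were higher and 1 lower in wild type. That is 52.2% of the list in the mutant, near the 48.6% of all genes tested, and 69.6% in wild type, against 39.8%. By direction, 39.1% were higher in the mutant and 65.2% in wild type, against 26.3% and 17.9% of all genes tested. Lower were 13% in the mutant and 4.35% in wild type, against 22.3% and 21.9%. Their summed level, out of log2, was 15527 to 17472 in mutant finasteride, 15030 to 15969 in mutant vehicle, 16921 to 18496 in wild-type finasteride and 12455 to 12935 in wild-type vehicle libraries. Within wild-type finasteride, libraries 1 to 5 had sums of 18496, 16921, 17570, 17432 and 17321. The 7 markers of luminal prostate epithelium summed to 48270 to 62611 in mutant finasteride, 100386 to 107130 in mutant vehicle, 245228 to 389516 in wild-type finasteride and 329030 to 384000 in wild-type vehicle libraries, with none at 0. Pbsn, an androgen-dependent secretory protein, was the largest single part of these sums outside mutant finasteride, and stood at 11.08 ± 0.44 log2 in mutant finasteride, 15.69 ± 0.038 in mutant vehicle, 18.01 ± 0.32 in wild-type finasteride and 18.23 ± 0.13 in wild-type vehicle libraries (SD). The other 6 markers summed to 45459 to 61303 in mutant finasteride, 48728 to 52672 in mutant vehicle, 60445 to 68356 in wild-type finasteride and 52360 to 58024 in wild-type vehicle libraries. Of all 7, 2 (Krt8 and Cdh1) were higher and 3 lower on finasteride in the mutant, and 2 were higher in wild type. The 6 macrophage markers were all higher on finasteride in the mutant, with sums of 3044 to 4314 in mutant finasteride, 1372 to 1509 in mutant vehicle, 1326 to 2091 in wild-type finasteride and 2166.4 to 2620 in wild-type vehicle libraries. The 5 T cell markers were all higher there too, with sums of 375 to 646 in mutant finasteride, 149 to 175 in mutant vehicle, 51.8 to 92.7 in wild-type finasteride and 105 to 116 in wild-type vehicle libraries. In wild type all 5 markers of the seminal vesicle, a neighbouring gland, and all 5 of adipocytes were lower on finasteride. In the mutant 2 of each of these lists were higher and none lower. The seminal vesicle markers summed to 89942 to 3045090 in mutant finasteride, 89687 to 220813 in mutant vehicle, 572 to 20579 in wild-type finasteride and 731 to 2785960 in wild-type vehicle libraries. Wild-type vehicle libraries 1 to 3 had 2785960, 731 and 1127990, so library 2 lay within the wild-type finasteride range. Library 3 was mixture-like, fitted from libraries 1 and 2. The part of these markers in the heat shock protein results was not tested.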

How the data were processed

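The 16 libraries were made from poly-A RNA with a TruSeq kit and run on an Illumina HiSeq2000, per the labels' protocols. Build mm9 and the tools DESeq, DESeq2, TopHat, Cufflinks and CASAVA 1.8.2 are named per the submitters' processing notes, and which of these made the table is not given in the sources used here. The deposited table holds normalized expression on a log2 scale for 29535 genes. The base was inferred from the values, which sum to similar totals once taken out of log2, and neither the read depth per library nor whether values were divided by gene length is given, so no count test or counting interval was possible. The table had 0 sample columns that were not used. The level of the mutated gene is not reported here.

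The log2 values were used with no pseudocount. Genes with a mean of at least 10 out of log2 (16895) were fitted together in limma 3.58.1 (R 4.3.3), with 1 term per group, a variance trend and no covariate, and p-values were adjusted by Benjamini-Hochberg over all genes tested in each of 5 comparisons, with 0.05 as the threshold. Single genes were also compared by two-sided exact permutation tests over libraries. The smallest possible p was 0.0179 for 5 against 3 libraries, 0.1 for 3 against 3 and 0.00794 for 5 against 5. The fit was tested on simulated data. Libraries were called mixture-like when, over genes with a mean log2 of at least 8, they lay within a residual SD of 0.1 of a mixture of a pair of libraries of their group with each weight at least 0.2. The 10 genes are named in every comparison, with up to 4 genes of lowest p from each list and the 5 genes most correlated with the mean z-score of the 10 genes and with Hspb8. The members and lists were chosen with earlier results of these data known. The macrophage marker Adgre1 was matched through its synonym Emr1. Alternatives were other filters, pseudocounts, normalizations and variance models, fits on the compared groups alone, library weights, and leaving out each library or the 5 mixture-like libraries. Promoters came from RefSeq and exon lengths from the annotation, both on GRCm38.p6. That is not the authors' build, so no coordinate was converted. Sequences were aligned with Biopython 1.88.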

Additional observations from a re-analysis of the deposited data

Results flagged for a closer look

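The finasteride difference was unlike between the genotypes for all 10 heat shock protein genes, by the limma test of the difference itself (mutant minus wild type, adjusted p under 0.05 over all genes tested). For the HSP70 genes the difference of differences was -3.15 log2 for Hspa1a, -2.91 log2 for Hspa1b and -2.14 log2 for Hspa8. For the co-factors of HSP70 it was -2.88 log2 for Hsph1 and -1.56 log2 for Dnajb1. For the HSP90 genes it was -1.17 log2 for Hsp90aa1 and -1.09 log2 for Hsp90ab1. For Hspb1 it was -1.50 log2, for Hspe1 -1.18 log2 and for Hspb8 2.07 log2, the only one of the 10 with a positive value. Over all genes tested 56.8% passed this test.

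No library stood out by Dixon's test in the 20 groups of 5 libraries examined (10 genes, 2 finasteride groups), where chance alone marks about 5% of groups.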

How the results depend on the processing

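Without the 5 mixture-like libraries the members called became 3 for finasteride in wild type and 3 for the difference between genotypes, and genes called over the table became 3431 for finasteride in the mutant (8206 with all libraries), 1445 in wild type (6721), 4963 for the difference (9597), 1531 for genotype on vehicle (5374) and 6946 for genotype on finasteride (10757). With library weights, of the 16895 genes tested, 12403 were called for finasteride in the mutant, 11012 in wild type and 10763 for genotype on vehicle. Members called in the mutant were 2 after median centring, 6 with library weights and 4 in the fit on the compared groups alone. On vehicle they were 3 with library weights and 3 in the fit on the compared groups alone. Of all genes tested, the fit on the compared groups alone called 50.5% in the mutant and 43.5% on vehicle. The share for median centring is not given here. Leaving out 1 library at a time gave 1 to 3 members called in the mutant, 9 to 10 in wild type, 9 to 10 for the difference, 1 on vehicle and 10 for genotype on finasteride. Genes called over the table then ran from 6513 to 9056 in the mutant and from 4589 to 7658 in wild type. They ran from 8588 to 10380 for the difference, 3936 to 4511 on vehicle and 10007 to 11327 for genotype on finasteride.

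Signs turned only among differences that were not called. In the mutant, Hspa1a had -0.079 log2 and Hsp90ab1 0.0295 log2 under quantile normalization, and Hspb1 had -0.088 log2 after median centring and -0.070 log2 with library weights. On vehicle, Hsph1 had 0.064 log2 after median centring and Dnajb1 -0.042 log2 under quantile normalization. Without 1 library, the mutant difference ran from -0.19 to 0.010 log2 for Dnajb1 and from -0.16 to 0.20 log2 for Hspb1. The vehicle difference then ran from -0.15 to 0.46 log2 for Hspa1b, -0.061 to 0.29 log2 for Hspa8, -0.10 to 0.088 log2 for Hsph1 and -0.10 to 0.11 log2 for Dnajb1. The cause was not tested.

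Of the called genes, the share that was higher moved with the scaling. It was 54.1% in the mutant (41.9% under quantile normalization, 39.4% after median centring), 45% in wild type (57.1% under quantile normalization), 53.2% for the difference (40.8% and 40.3%), 44.9% on vehicle (55.5% after median centring) and 53.3% for genotype on finasteride (42.3% and 42.6%). Median centring shifted the median of all genes by -0.14 log2 in the mutant, -0.21 for the difference and -0.13 for genotype on finasteride, and quantile normalization shifted the last 2 by -0.15 and -0.11. Hsp90aa1 in wild type also lost its call with no filter (adjusted p = 0.0532), under quantile normalization (0.0502), with no variance trend (0.0536) and in the limma fit on wild type alone (0.125).

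No paired analysis was possible because the sample titles carry running numbers that are not shared between groups. With no read depth, the precision of single values is unknown.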
